A study of Rattus norvegicus with 12 samples.

Results

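The effect of adding 3-methylcholanthrene (3-MC) to 17β-estradiol (E2) was examined in the rat mammary gland by comparing 3 rats given E2 + 3-MC with 3 rats given E2 without 3-MC. These 6 arrays were chosen by their titles from a series of 12, which also holds 3 rats given 3-MC and 3 rats given the vehicle. All 12 animals were ovariectomized female Lewis rats, about 10 weeks old at surgery and treated from 14 days after it. They received 3 subcutaneous treatments with 3-MC at 15 mg per kg per day, E2 at 4 μg per kg per day, both, or neither, and every group received the DMSO and castor oil vehicle. Treatments were 24 hr apart and glands were taken 24 hr after the last, a schedule that the labels call 48 h. Ovariectomy removes the ovarian source of estrogen, so that the rats of the E2 groups depend on the injected hormone. Total RNA of the whole gland, 1 array per rat, was measured. The labels describe the 3 samples of a group as separate rats.

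The aryl hydrocarbon receptor (AHR) is a ligand-activated transcription factor that binds polycyclic aromatic hydrocarbons such as 3-MC, pairs with ARNT and switches on cytochrome P450 genes of the CYP1 family and its own repressor, AHRR. The estrogen receptor α is a hormone-activated transcription factor of luminal mammary epithelium, where estrogen increases the progesterone receptor and amphiregulin and drives epithelial cells into division. Ligands of the AHR are known to oppose several actions of estrogen in breast and uterus, and the comparison asks which transcripts of the E2-treated gland differed when 3-MC was given with it.

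All 31 mitosis genes tested had a lower mean with E2 + 3-MC than with E2, 20 of 21 genes of chemokines and acute inflammation and 17 of 17 interferon-response genes had a higher one, and the means of the clock-controlled genes Nr1d1 and Dbp were 2.11-fold and 2.17-fold higher. In 1 model of all 12 arrays, none of the 23371 probe sets tested met both criteria for a call (0% higher and 0% lower). The criteria were a limma p under 0.05 after Benjamini-Hochberg adjustment and a difference of 1.5-fold or more. The smallest limma adjusted p was 0.101, shared by Nr1d1 and a probe set without a gene symbol. At an unadjusted limma p under 0.05 in that model, 1401 probe sets were higher (5.99%) and 648 were lower (2.77%). This 12-array model was the planned main test, and a limma fit to the 6 arrays compared alone was an alternative to it. In that 6-array fit, 269 probe sets were higher (1.15%) and 90 were lower (0.385%) at the same adjusted threshold. None of these calls passed in the 12-array model. Between these fits, the median residual SD was 0.19 with 12 arrays and 0.17 with 6 on the log2 scale. Each call of the 6-array fit had 3 rats of one group entirely above the 3 of the other. Over all tested probe sets, the 3 rats with E2 + 3-MC lay entirely above the 3 with E2 in 2807 (12%) and entirely below them in 1386 (5.93%). With 3 rats against 3, an exact two-sided permutation test cannot give a p below 0.1.

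**Figure D1:**
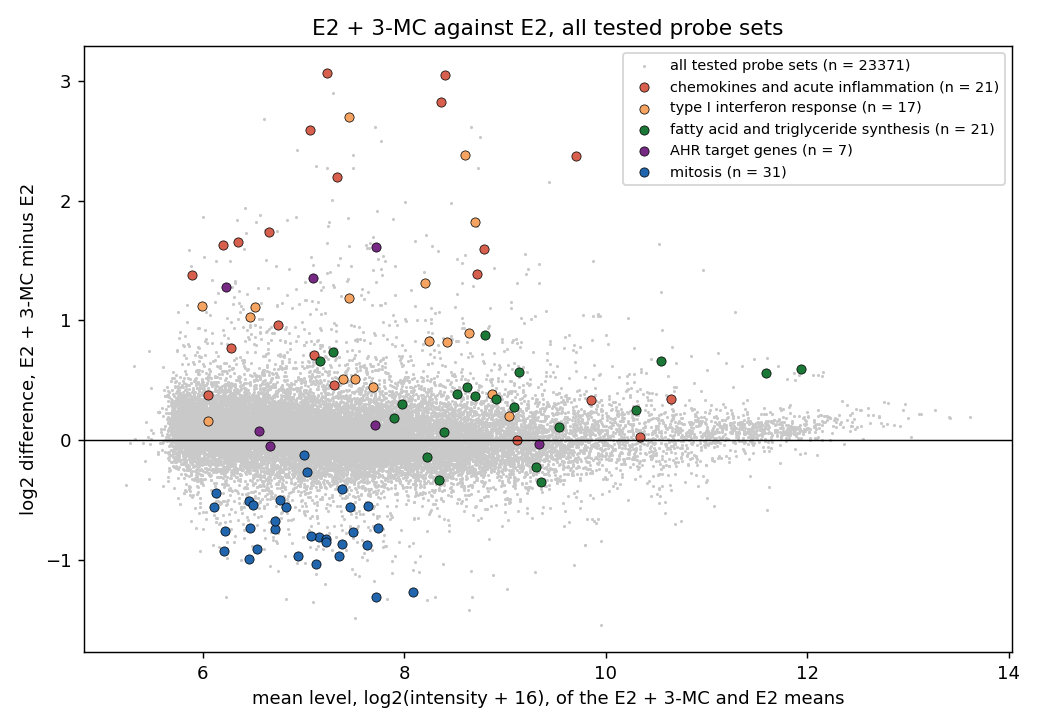
Log2 difference between E2 + 3-MC and E2 (vertical axis) against the mean level of both groups as log2(intensity + 16) (horizontal axis) for the 23371 probe sets tested (grey), with members of 5 gene lists in color. All 31 mitosis genes lie below 0, and 20 of 21 genes of chemokines and acute inflammation lie above it.

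The number of calls in the 6-array fit rested on single rats and on the scaling. It was 8 higher and 6 lower without E2 + 3-MC rat 2, 17 higher and 25 lower without E2 + 3-MC rat 3, and 684 higher and 178 lower without E2 + 3-MC rat 1. Without one E2 rat it was 64 to 197 higher and 22 to 64 lower. Of the 359 calls, 74.9% were higher, whereas 28.6% of 28 calls were higher when each array was centered on its median and 36.0% of 25 were higher when quantile normalization was applied again. All 25 and all 28 of these calls were among the 359. A call lost on rescaling does not mean a lost difference, as list medians given below show. Of the 46 genes named here that were under 0.05 in the 6-array fit, 6 were under it in each of 14 alternatives of that fit as well. These were Nusap1, Top2a and Kif11, which were lower with E2 + 3-MC, and Hmox1, Nr1d1 and Dbp, which were higher. Below, "the 12-array fit" and "the 6-array fit" name these models, and log2 differences are E2 + 3-MC minus E2 on the log2(intensity + 16) scale, whose median over all tested probe sets was 0.05. For comparison with the counts of list members below, 1.15% of all probe sets were called higher and 0.385% lower in the 6-array fit. At an unadjusted limma p under 0.05 in the 12-array fit, these shares were 5.99% and 2.77%.

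Markers of the mammary gland were present. Intensities of Krt18, a luminal keratin, averaged 1374 ± 229.8 with E2 + 3-MC and 1842 ± 325 with E2, and those of Adipoq, an adipocyte hormone, 3717 ± 572 with E2 + 3-MC and 3067 ± 281 with E2 (SD, n = 3 rats each). In bulk tissue, fewer cells of a type and less RNA per cell cannot be told apart. Skeletal muscle RNA varied widely between rats. The summed intensity of its 15 genes was 882 to 2790 with E2 + 3-MC, 1411 to 8843 with E2, 706 to 34603 with 3-MC and 609 to 46952 with vehicle. The muscle genes had a median log2 difference of -1.12, and the groups overlapped in 15 of 15. Without E2 rat 2 the median was -1.87 and 11 of 15 were called lower in the 6-array fit, without E2 rat 1 it was -0.48 with 0 called, and without E2 + 3-MC rat 3 it was -0.68 with 0 called. The part of muscle RNA in the other results was not tested.

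**Figure D2:**
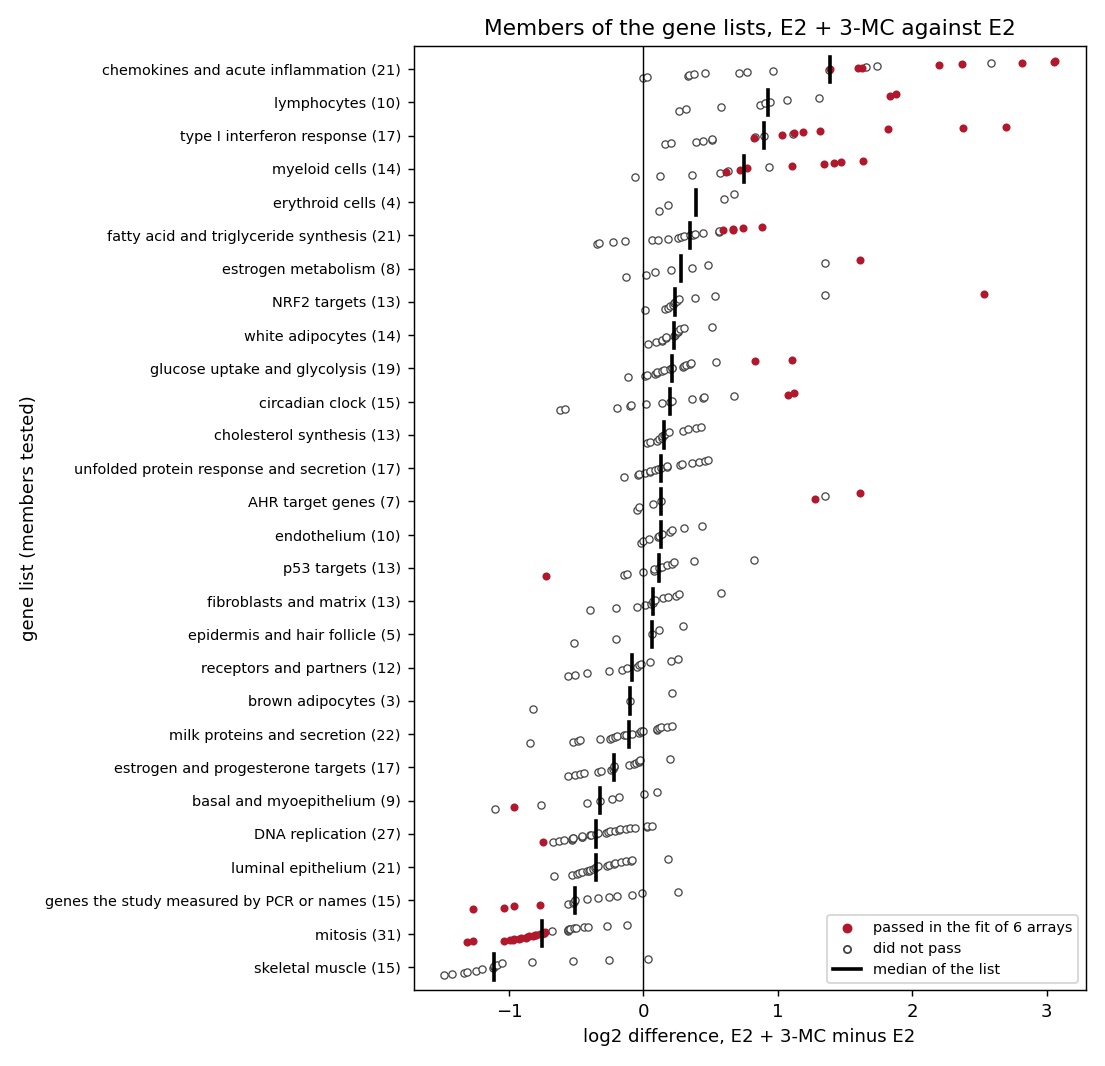
Log2 difference between E2 + 3-MC and E2 (horizontal axis) for each tested member of 28 gene lists (rows, ordered by their median, with the number of members in parentheses). Red points passed in the 6-array fit, open points did not, and the bar marks the median, which is 1.39 for chemokines and acute inflammation and -0.76 for mitosis.

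AHR target genes were examined first, because their induction is the established response to 3-MC. Of 14 genes listed, 9 had a probe set with a single gene symbol, 7 were above the filter on low signals, and their median log2 difference was 0.13. In the 6-array fit 2 were higher and 0 were lower, and 3 were higher at an unadjusted limma p under 0.05 in the 12-array fit. The promoters of the 3 genes with the largest differences are shown as the 250 bases before the start, from RefSeq (GRCr8), at chr6:21094315-21094564 (plus strand) for Cyp1b1, chr1:30821969-30822218 (plus strand) for Ahrr and chr19:52220268-52220517 (minus strand) for Nqo1, 5′ to 3′ in the direction of the gene. Capitals mark the core of the AHR element, GCGTG or its reverse complement CACGC. The start used for Cyp1b1 lies 638 bases from the 5′ end of the annotated gene.
Cyp1b1: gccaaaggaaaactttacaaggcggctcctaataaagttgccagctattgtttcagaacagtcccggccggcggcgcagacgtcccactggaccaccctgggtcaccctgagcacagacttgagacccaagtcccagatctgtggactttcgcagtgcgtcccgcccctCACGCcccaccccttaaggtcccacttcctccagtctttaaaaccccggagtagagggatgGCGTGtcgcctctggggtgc
Ahrr: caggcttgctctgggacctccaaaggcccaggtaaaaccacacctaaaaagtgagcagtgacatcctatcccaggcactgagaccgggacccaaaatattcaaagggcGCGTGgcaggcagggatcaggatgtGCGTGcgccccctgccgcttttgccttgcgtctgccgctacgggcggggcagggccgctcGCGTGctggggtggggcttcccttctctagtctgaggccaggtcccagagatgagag
Nqo1: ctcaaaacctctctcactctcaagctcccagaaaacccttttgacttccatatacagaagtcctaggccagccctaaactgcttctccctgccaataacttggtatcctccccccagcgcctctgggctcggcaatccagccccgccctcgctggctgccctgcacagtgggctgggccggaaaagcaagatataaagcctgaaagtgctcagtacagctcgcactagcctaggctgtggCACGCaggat
This core was present 2 times for Cyp1b1, 3 times for Ahrr and 1 time for Nqo1. It was held by 4 of the 6 tested list genes with a promoter sequence and by 27.1% of the 27457 genes of the table. The core was not particular to this list. Among genes with a promoter sequence, 9 of 14 of the unfolded protein response and 6 of 11 of cholesterol synthesis held it. Of myeloid genes, 1 of 11 did. Of the 15 largest differences each way, 7 of 12 lower genes and 1 of 10 higher genes with a promoter held it. The promoter of Nusap1, a mitosis gene that was lower with E2 + 3-MC, held it 3 times, as did that of Ahrr.

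Cyp1b1, a P450 that hydroxylates estradiol and activates polycyclic hydrocarbons, had intensities of 154, 560.2 and 407 with E2 + 3-MC and of 97.7, 88.3 and 107 with E2. The difference was 3.06-fold (log2 1.61, SE 0.53, limma adjusted p = 0.466 in the 12-array fit and 0.0305 in the 6-array fit, 8.64e-07 to 0.316 over the alternatives of the 6-array fit). Ahrr, the AHR repressor, gave 51.0, 168 and 98.4 with E2 + 3-MC and 25.5, 38.8 and 27.7 with E2. Both groups of rats were separate for these genes, and rat 1 was the lowest of the E2 + 3-MC group in each. Nqo1, a quinone reductase shared by the AHR and NRF2 programs, had 87.1, 346 and 215 with E2 + 3-MC and 64.8, 65.1 and 63.1 with E2 (2.55-fold, limma adjusted p = 0.0553 in the 6-array fit, 8.02e-06 to 0.385 over its alternatives). Cyp1a1, the classical AHR target, was below the filter on low signals and was not tested. Its intensities were 18.0, 111 and 30.6 with E2 + 3-MC and 16.9, 21.8 and 22.7 with E2, so that rat 1 overlapped with the E2 rats while rats 2 and 3 were above them. The liver-type gene Cyp1a2 was 203 ± 11.8 with E2 + 3-MC and 184 ± 7.56 with E2, and Aldh3a1, an aldehyde dehydrogenase, was 83.8 ± 13.7 with E2 + 3-MC and 86.9 ± 8.19 with E2 (SD, n = 3 rats each). In rats given 3-MC without E2, Cyp1b1 was 553, 101 and 588, against 161, 127 and 211 with vehicle, and this pair overlapped. E2 + 3-MC rat 1 and 3-MC rat 2, the lowest of their groups for Cyp1b1, were also the lowest for the chemokine list described below. The part of that variation between rats in the AHR target values was not tested. The summed intensity of the 7 genes was 1270 to 1969 with E2 + 3-MC and 1128 to 1200 with E2.

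Of 31 mitosis genes tested, 0 were above 0 and 31 were below it, 28 had rats of E2 + 3-MC entirely below those of E2 (5.93% of all probe sets), 24 were lower at an unadjusted limma p under 0.05 in the 12-array fit, and 18 were lower in the 6-array fit, with a median log2 difference of -0.76 and a range of -1.31 to -0.12. The 6-array count was 3 without E2 + 3-MC rat 2, 9 to 16 without any other single rat, 8 when arrays were centered on their medians and 6 when quantile normalization was applied again. Promoters of mitotic genes are known to carry CCAAT boxes near a cell cycle element, and 3 examples that were lower with E2 + 3-MC are shown at chr3:127057045-127057294 (plus strand) for Nusap1, chr2:33655226-33655475 (minus strand) for Ccnb1 and chr10:84473094-84473343 (minus strand) for Top2a (GRCr8, 250 bases before the start, direction of the gene). Capitals mark CCAAT or ATTGG and the cell cycle element TTTGAA or TTCAAA.
Nusap1: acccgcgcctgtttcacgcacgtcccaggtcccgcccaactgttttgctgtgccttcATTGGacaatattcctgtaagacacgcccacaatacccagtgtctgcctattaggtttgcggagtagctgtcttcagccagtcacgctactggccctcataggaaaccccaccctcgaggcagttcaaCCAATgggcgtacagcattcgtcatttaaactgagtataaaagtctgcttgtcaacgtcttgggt
Ccnb1: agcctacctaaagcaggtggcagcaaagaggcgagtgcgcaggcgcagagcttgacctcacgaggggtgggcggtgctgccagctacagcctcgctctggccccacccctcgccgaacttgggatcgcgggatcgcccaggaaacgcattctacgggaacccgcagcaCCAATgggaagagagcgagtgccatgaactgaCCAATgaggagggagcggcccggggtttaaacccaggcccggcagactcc
Top2a: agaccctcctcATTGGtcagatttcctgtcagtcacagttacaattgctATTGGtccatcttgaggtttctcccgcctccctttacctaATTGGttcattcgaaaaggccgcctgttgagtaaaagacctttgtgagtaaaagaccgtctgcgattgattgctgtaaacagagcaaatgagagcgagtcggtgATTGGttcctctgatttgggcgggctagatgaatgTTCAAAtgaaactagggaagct
Marked motifs number 2 in Nusap1, 2 in Ccnb1 and 5 in Top2a, and the start used for Nusap1 lies 75 bases from the annotated 5′ end. A CCAAT box was found in 19 of 26 mitosis genes with a promoter sequence and in 34.3% of all genes of the table. It was as frequent in lists that were not lower, with 12 of 16 genes of fatty acid and triglyceride synthesis, 9 of 11 of cholesterol synthesis and 11 of 14 of the unfolded protein response. The letters TTTGAA or TTCAAA were found in 13 of the 26 and in 16.1% of all genes, and of the 3 shown only the Top2a window holds them. No variant of these letters was searched, so the other 2 windows cannot be said to lack a cell cycle element.

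Nusap1, which bundles spindle microtubules, had intensities of 109, 114 and 130.5 with E2 + 3-MC and of 314, 333 and 302 with E2. It was 2.48-fold lower (log2 -1.31, SE 0.24), with a limma adjusted p of 0.26 in the 12-array fit and of 0.00114 in the 6-array fit, and from 6.21e-05 to 0.0159 over the alternatives of the 6-array fit. The 3 rats of each group lay close together and far from the other group. Top2a, the topoisomerase that untangles chromosomes before they separate, had 127, 171 and 182 with E2 + 3-MC and 378, 463 and 378 with E2 (2.41-fold lower, limma adjusted p = 0.00622 in the 6-array fit, 9.88e-05 to 0.0364 over its alternatives). Kif11, the kinesin that pushes spindle poles apart, had 76.7, 79.5 and 88.7 with E2 + 3-MC and 190.0, 193 and 171 with E2 (2.05-fold lower). Ccnb1, the cyclin that starts mitosis, had 69.8, 104 and 132 with E2 + 3-MC and 195, 214 and 218 with E2. No rat of one group reached the range of the other in any of these genes. All were among the 15 largest differences, whose naming required separate groups, so this separation is no added evidence. The kinases Plk1 and Aurkb were 1.75-fold and 1.77-fold lower and were called in the 6-array fit, whereas Aurka, at a log2 difference of -0.12, overlapped. Outside the list, Stmn1, which destabilizes microtubules, had 565, 462 and 648 with E2 + 3-MC and 1249, 1299 and 955 with E2, and the linker histone gene H1f5 averaged 124 ± 45.4 with E2 + 3-MC and 293 ± 59.5 with E2.

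All 31 mitosis genes had a mean with E2 + 3-MC that lay between the E2 mean and the vehicle mean. E2 against vehicle, which shares the E2 arrays with the comparison made here, called 27 of the 31 as higher (1.30% of all probe sets), and E2 + 3-MC against vehicle called 0 (0.154% of all). The list level, given as the median over members of the log2 distance to the vehicle mean, was 0.50, 0.69 and 0.76 in the E2 + 3-MC rats, 1.28, 1.51 and 1.39 in the E2 rats, 1.08, 0.00 and 0.59 in the 3-MC rats and 0.00, -0.37 and 0.38 in the vehicle rats. The E2 rats were all above the others, and the 3-MC rats spread over most of the remaining range. The interaction of E2 and 3-MC, which asks whether 3-MC acted differently with and without E2, had an unadjusted limma p under 0.05 for 28 of the 31 (4.42% of all probe sets), with a median of -1.34 on the log2 scale, but its smallest limma adjusted p was 0.446.

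**Figure D3:**
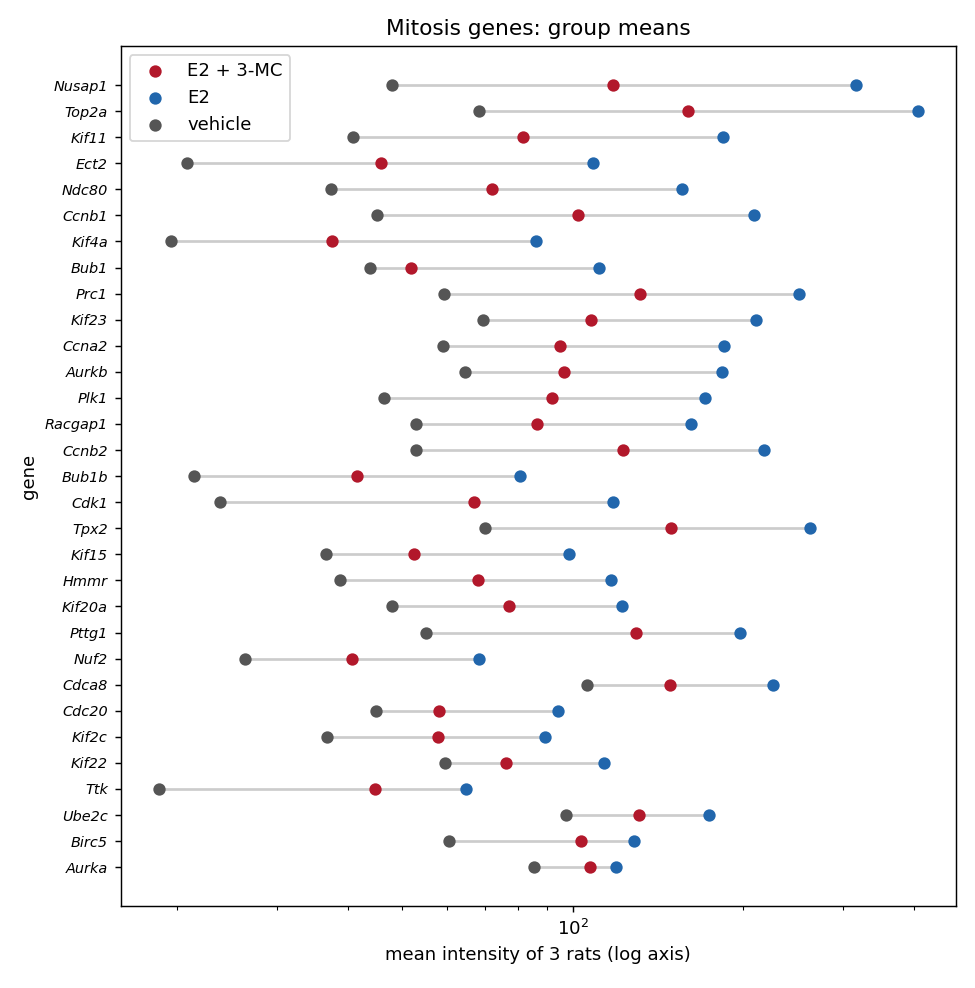
Mean intensity of 3 rats (horizontal log axis) for the 31 tested mitosis genes (rows, ordered by their difference) with E2 + 3-MC, E2 and vehicle. In every row the E2 + 3-MC mean lies between the E2 and vehicle means.

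Genes of DNA replication had a smaller median difference. Of 27 tested, 24 were below 0 with a median log2 difference of -0.35, and 8 were separate and lower (5.93% of all probe sets). At an unadjusted limma p under 0.05 in the 12-array fit 6 were lower (2.77% of all), and 1 was lower in the 6-array fit (0.385% of all). This was Prim1, the catalytic subunit of DNA primase, with 123, 110.2 and 103 with E2 + 3-MC and 222, 198 and 179.7 with E2 (1.68-fold lower). The sliding clamp gene Pcna averaged 443 ± 125 with E2 + 3-MC and 665 ± 121 with E2, and the helicase subunit gene Mcm6 averaged 96.2 ± 15.9 with E2 + 3-MC and 160.0 ± 40.6 with E2. The licensing gene Cdt1 and the primer-extension gene Pold1 had log2 differences of 0.06 and 0.03.

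Of the keratin genes named here, Krt15 and Krt17 were called lower in the 6-array fit. Krt15, a keratin of basal and progenitor-like epithelial cells, had intensities of 741, 385 and 558 with E2 + 3-MC and of 2205, 1800 and 1053 with E2 (2.91-fold lower, log2 -1.54, SE 0.28, limma adjusted p = 0.26 in the 12-array fit and 0.0159 in the 6-array fit, 0.000152 to 0.13 over its alternatives). The E2 + 3-MC rats overlapped with the vehicle rats, which had 665, 569.6 and 693. Krt17, a keratin of basal cells, had 189, 175 and 195 with E2 + 3-MC and 488, 392 and 284 with E2 (1.95-fold lower, limma adjusted p = 0.0183 in the 6-array fit, 0.00184 to 0.134 over its alternatives). Krt14 had 543, 275 and 414 with E2 + 3-MC and 1210, 963 and 561 with E2, which did not pass in the 6-array fit (limma adjusted p = 0.0586, 0.00262 to 0.294 over its alternatives). In Krt14 the gap between the groups was narrow, 543 in the highest E2 + 3-MC rat against 561 in the lowest E2 rat. Krt17 was the single called member among 9 basal and myoepithelial genes, whose median was -0.32, and the contractile genes Acta2 and Tagln were at 0.00 and -0.18. Among 21 luminal genes, 20 were below 0 with a median of -0.35, and 9 were separate and lower (5.93% of all probe sets). At an unadjusted limma p under 0.05 in the 12-array fit 9 were lower (2.77% of all), and 0 were called in the 6-array fit. Krt8 averaged 396 ± 48.5 with E2 + 3-MC and 652 ± 170.0 with E2 (log2 -0.67), while a second probe set of Krt8 was at -0.54 and overlapped. Epcam, an adhesion molecule of all epithelial cells, had 1135, 809 and 911 with E2 + 3-MC and 1373, 1262 and 1117 with E2, which overlapped. The summed intensity of the luminal list was 9341 to 12040 with E2 + 3-MC and 12303 to 15623 with E2. These lists moved with the mitosis list, and their part in that result was not tested.

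**Figure D4:**
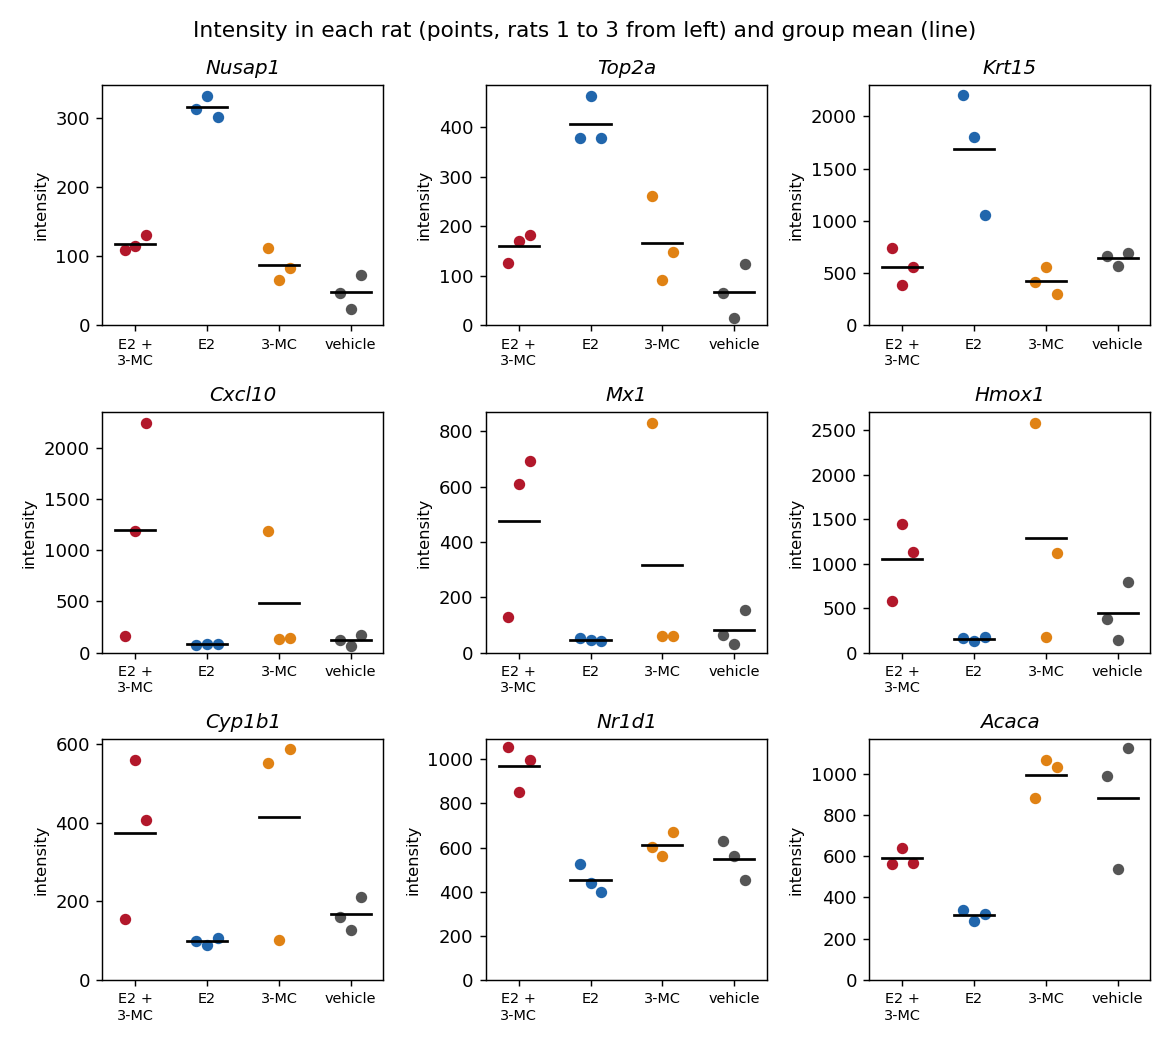
Intensity of 9 genes in each rat (points) with the group mean (line), for E2 + 3-MC, E2, 3-MC and vehicle from left to right, on linear axes that start at 0. For Nusap1, Top2a, Nr1d1 and Acaca the rats of E2 + 3-MC and E2 form tight separate groups, whereas for Cxcl10 and Mx1 E2 + 3-MC rat 1 lies far below rats 2 and 3. The naming of Nusap1 and Top2a among the largest differences required separate groups.

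Targets of estrogen and progesterone were not called in either direction. Of 17 tested, 16 were below 0, but the median log2 difference was -0.22, and 3 were separate and lower (5.93% of all probe sets). At an unadjusted limma p under 0.05 in the 12-array fit 4 were lower (2.77% of all), and 0 were called in the 6-array fit. Pgr, the progesterone receptor, had 619, 411 and 575 with E2 + 3-MC and 795, 838 and 722 with E2, against 38.3, 45.6 and 31.1 with vehicle. Its log2 difference was -0.56 (SE 0.24, limma adjusted p = 0.552 in the 12-array fit and 0.114 in the 6-array fit, 0.0354 to 0.364 over its alternatives). Prlr, the prolactin receptor, had 527, 365 and 499.5 with E2 + 3-MC and 669.7, 718 and 591 with E2. In both genes the E2 + 3-MC rats lay below the E2 rats and above the vehicle rats. Areg, the growth factor amphiregulin, had 356, 288 and 697 with E2 + 3-MC and 572, 498 and 526 with E2, and the groups overlapped. A complete estrogen response element, GGTCA followed by any 3 bases and TGACC, was found in the 250 bases of 0 of 13 of these genes and of 0.0219% of all genes. With only 6 of 27457 genes holding it, this search could hardly give another count and does not bear on these genes.

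Of the receptors themselves, Esr1, which encodes estrogen receptor α, had 287, 201 and 273 with E2 + 3-MC and 397, 294 and 338 with E2 (log2 -0.42, SE 0.30, limma adjusted p = 0.729 in the 12-array fit and 0.28 in the 6-array fit, 0.138 to 0.576 over its alternatives), and a second probe set had the same difference of -0.42. The groups of rats were separate but adjacent. Ahr had 258, 217 and 241 with E2 + 3-MC and 334, 303 and 234 with E2, and overlapped. Arnt, the partner of the AHR, had a log2 difference of -0.02, and Esr2 was below the filter on low signals. Among all 12 receptors and partners tested, 0 were called in the 6-array fit, with a median of -0.09. Of 8 genes of estrogen metabolism tested, Cyp1b1 was the single call, with a median of 0.28, and the steroid sulfatase gene Sts was at 0.48. Of 15 genes that the study itself measured or named, 4 were called lower in the 6-array fit (Top2a, Ccnb1, Ccnb2 and Kif11) with a median of -0.51. That list was chosen by the study on these samples and is not independent evidence of its direction.

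Milk protein genes, of which 8 of 22 were called higher by E2 against vehicle (1.30% of all probe sets), were not called in either direction by adding 3-MC. Their 22 members had a median log2 difference of -0.11, and 2 were separate and lower, near the share of 5.93% over all probe sets. The casein gene Csn2 had 1652, 502 and 1744 with E2 + 3-MC and 1578, 1500 and 1853 with E2, and Csn1s2a had 883, 223 and 1330 with E2 + 3-MC and 1039, 1165 and 1333 with E2. E2 + 3-MC rat 2 was low in both and in Wap, which encodes whey acidic protein (1181, 557 and 1621 with E2 + 3-MC, 1188, 1145 and 1190 with E2). Without rat 2, the median of the list was 0.09 and the log2 differences were 0.05 for Csn2, 0.23 for Wap and -0.11 for Csn1s2a, against -0.52, -0.20 and -0.85 with all rats. The sign of the list median therefore rested on that rat.

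Of 21 genes of chemokines and acute inflammation, 20 were above 0 with a median log2 difference of 1.39, 14 had separate groups (12% of all probe sets), 15 were higher at an unadjusted limma p under 0.05 in the 12-array fit, and 8 were higher in the 6-array fit. Of 17 genes of the type I interferon response, 17 were above 0 with a median of 0.90, 14 had separate groups, 11 were higher at an unadjusted limma p under 0.05 and 8 were higher in the 6-array fit. Both counts were 0 under either rescaling of the arrays, while the medians stayed close to these values. With quantile normalization applied again they were 1.37 for chemokines and 0.89 for interferon genes, and with centering 1.33 and 0.84. The chemokine count was 15 without E2 + 3-MC rat 1 and 1 without E2 + 3-MC rat 2, and the interferon count was 13 without E2 + 3-MC rat 1 and 0 without E2 + 3-MC rat 2. Without E2 + 3-MC rat 3 the counts were 1 and 0. Promoters are shown for the interferon-induced chemokine Cxcl10 at chr14:15988816-15989065 (plus strand) and for Ifit3 at chr1:241527076-241527325 (plus strand) (GRCr8, 250 bases before the start, direction of the gene). Capitals mark the core of the interferon element, GAAA followed by any 2 bases and GAAA, or its reverse complement with TTTC on both sides, a motif chosen after the values were seen.
Cxcl10: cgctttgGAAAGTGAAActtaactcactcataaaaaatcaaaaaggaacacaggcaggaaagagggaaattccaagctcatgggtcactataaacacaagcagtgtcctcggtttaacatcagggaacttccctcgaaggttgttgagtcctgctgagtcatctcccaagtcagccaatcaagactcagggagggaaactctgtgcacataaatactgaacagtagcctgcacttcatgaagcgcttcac
Ifit3: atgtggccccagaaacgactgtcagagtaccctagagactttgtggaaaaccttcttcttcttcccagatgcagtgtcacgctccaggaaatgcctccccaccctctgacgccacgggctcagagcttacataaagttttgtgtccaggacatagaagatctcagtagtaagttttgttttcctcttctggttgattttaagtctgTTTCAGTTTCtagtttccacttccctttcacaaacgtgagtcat
The motif was found in 6 of 11 interferon-response genes with a promoter sequence and in 3.28% of all genes of the table.

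Cxcl10, a chemokine that attracts T cells, had intensities of 166, 1182 and 2238 with E2 + 3-MC and of 71.6, 79.3 and 87.3 with E2 (8.29-fold higher, log2 3.05, SE 0.83, limma adjusted p = 0.397 in the 12-array fit and 0.0325 in the 6-array fit, 1.62e-08 to 0.371 over its alternatives). Cxcl11, of the same family, had 76.0, 523 and 924 with E2 + 3-MC and 24.0, 33.3 and 24.7 with E2. The E2 rats were uniformly low, and E2 + 3-MC rat 1 was closer to them than to rats 2 and 3. Ccl2, which recruits monocytes, had 674, 2466 and 3021 with E2 + 3-MC and 390.0, 266 and 312 with E2. Mx1, an interferon-induced antiviral GTPase, had 129, 608 and 691 with E2 + 3-MC and 52.3, 44.8 and 40.6 with E2 (6.48-fold higher), and Isg15, a ubiquitin-like interferon product, had 348, 839 and 1257 with E2 + 3-MC and 197, 197 and 182 with E2. Nos2, the inducible nitric oxide synthase of activated macrophages, was at 36.7 in E2 + 3-MC rat 1, at 809 and 779 in rats 2 and 3, and at 26.4, 31.0 and 26.1 with E2, and it was not called in the 6-array fit (limma adjusted p = 0.0778, 3.27e-10 to 0.47 over its alternatives). Acod1, which makes the macrophage metabolite itaconate, had 50.8, 450.5 and 532 with E2 + 3-MC and 24.2, 46.0 and 43.0 with E2. The neutrophil chemokine Cxcl1 did not share this pattern, at 540.0 ± 48.1 with E2 + 3-MC and 541 ± 44.0 with E2 (log2 0.00).

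Markers of immune cells moved with these genes. Of 14 myeloid genes, 13 were above 0 with a median log2 difference of 0.74 and 8 were called higher in the 6-array fit (0 or 1 after rescaling). Of 10 lymphocyte genes, 10 were above 0 with a median of 0.92 and 2 were called higher (0 after rescaling). Over all probe sets, 1.15% were called higher in that fit. After quantile normalization applied again and after centering, the medians were 0.72 and 0.68 for myeloid and 0.85 and 0.86 for lymphocyte genes. Both lists had 0 calls without E2 + 3-MC rat 2 and 0 without E2 + 3-MC rat 3. The summed intensity of the myeloid list was 10452 to 17149 with E2 + 3-MC and 7175 to 8460 with E2, and that of the lymphocyte list was 1160 to 2534 with E2 + 3-MC and 781 to 886 with E2. Fcer1g, a signaling subunit of Fc receptors, had 1609, 3479 and 2872 with E2 + 3-MC and 758, 782 and 873 with E2, and Cd8a, of cytotoxic T cells, had 65.1, 216 and 151 with E2 + 3-MC and 19.4, 28.2 and 28.3 with E2. The endotoxin receptor gene Cd14 was 1690 ± 391 with E2 + 3-MC and 1748 ± 232 with E2, the one myeloid gene below 0, and no tested member of either list was at 0 intensity. The part of these cells in the chemokine and interferon values was not tested.

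The same genes also varied between rats that had not received E2. The chemokine list level was -0.14, 1.04 and 1.22 in the E2 + 3-MC rats, -0.55, -0.53 and -0.48 in the E2 rats, 1.08, -0.18 and 0.85 in the 3-MC rats and -0.05, -0.33 and 0.48 in the vehicle rats. The myeloid list level was 0.17, 0.59 and 0.75 with E2 + 3-MC, -0.47, -0.42 and -0.15 with E2, 0.79, 0.02 and 0.82 with 3-MC and -0.17, -0.40 and 0.69 with vehicle. For chemokines the 3 E2 rats were the lowest, for myeloid genes they overlapped with vehicle rats 1 and 2, and 3-MC rats 1 and 3 and vehicle rat 3 reached values near those of E2 + 3-MC. For Ccl2, the vehicle rats had 631, 317 and 2747. Of the interaction tests on the 21 chemokine genes, 2 had an unadjusted limma p under 0.05, and on the 17 interferon genes 0 did.

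**Figure D5:**
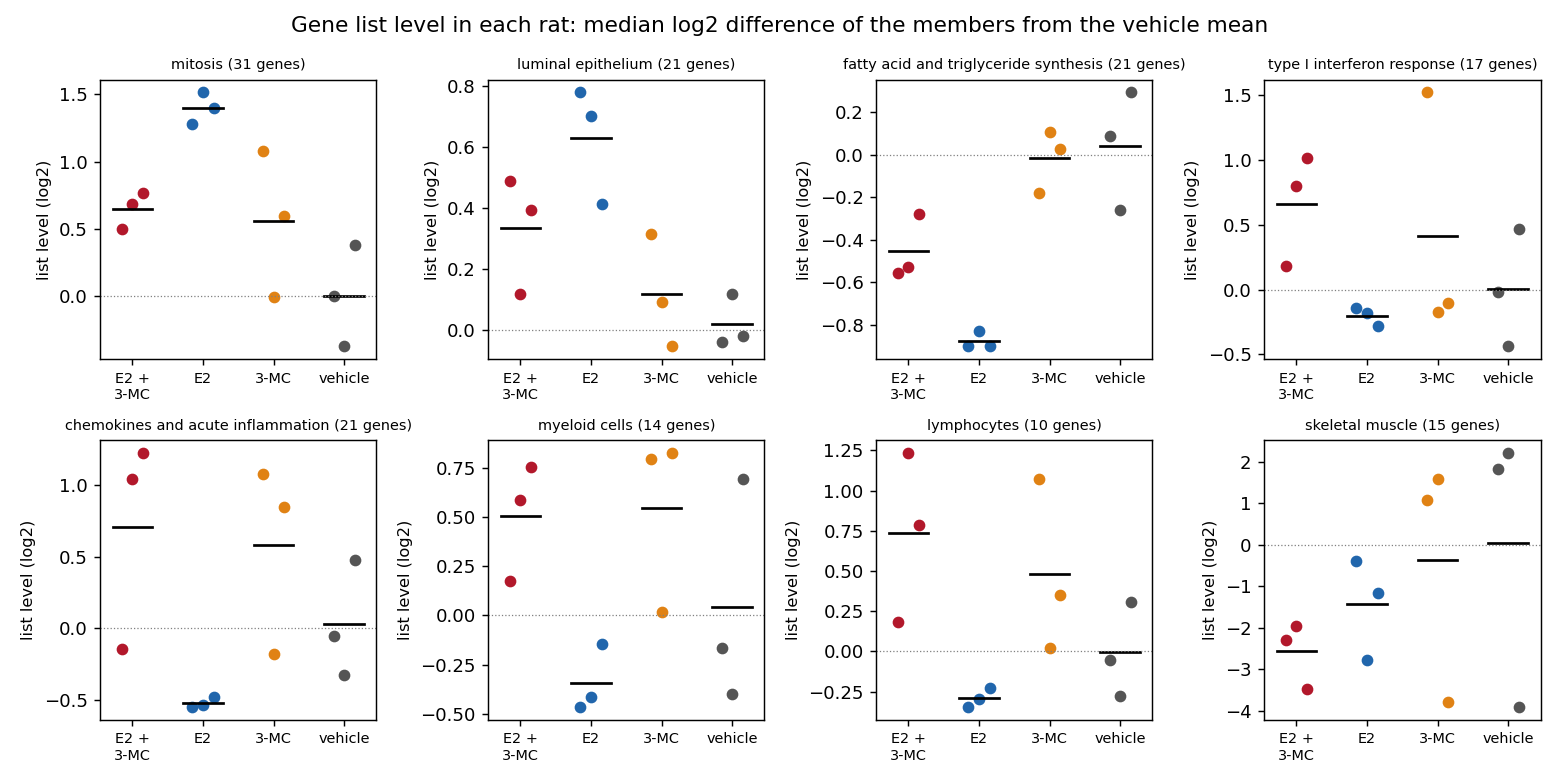
Level of 8 gene lists in each rat (points) with the group mean (line), for E2 + 3-MC, E2, 3-MC and vehicle from left to right, as the median log2 difference of the members from the vehicle mean. The E2 rats are the highest for mitosis and the lowest for the chemokine list, and skeletal muscle spans -3.91 to 2.20 within the vehicle group.

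Of 21 genes of fatty acid and triglyceride synthesis, 17 were above 0 with a median log2 difference of 0.34, and 13 were separate and higher (12% of all probe sets). At an unadjusted limma p under 0.05 in the 12-array fit, 7 were higher (5.99% of all) and 1 was lower (2.77% of all). In the 6-array fit 5 were higher (1.15% of all). This count was 0 after either rescaling, 0 without E2 + 3-MC rat 2 and 1 without E2 + 3-MC rat 3. The median was 0.32 after quantile normalization applied again and 0.28 after centering. Acaca, the acetyl-CoA carboxylase that commits carbon to fatty acids, had intensities of 562, 639 and 568 with E2 + 3-MC and of 338, 283 and 320.0 with E2 (1.84-fold higher, log2 0.88, SE 0.21, limma adjusted p = 0.371 in the 12-array fit and 0.00904 in the 6-array fit, 0.00181 to 0.0768 over its alternatives). Fasn, fatty acid synthase, had 1656, 1965 and 2017 with E2 + 3-MC and 1171, 1226 and 1134 with E2. Both groups were tight and separate, and the E2 + 3-MC rats lay below the vehicle rats for Fasn, which had 2486, 2303 and 3662. The other called members were Scd, Elovl6 and Pnpla3, which act in desaturation, elongation and lipid droplet remodeling. The desaturase Fads1 and the mitochondrial carboxylase Acacb ran the other way at -0.35 and -0.33. Of 12 lipogenic genes called lower by E2 against vehicle (0.287% of all probe sets), none was called lower by E2 + 3-MC against vehicle (0.00856% of all), comparisons that share arrays with each other and with the one made here. The lack of calls does not mean a return to the vehicle level. The list level was -0.56, -0.53 and -0.28 in the E2 + 3-MC rats and -0.90, -0.83 and -0.90 in the E2 rats. In the vehicle rats it was 0.09, -0.26 and 0.29.

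Of 19 genes of glucose uptake and glycolysis, 18 were above 0 with a median of 0.21, and 2 were called in the 6-array fit. Pfkfb3, which makes the activator of phosphofructokinase, had 369.8, 566 and 632 with E2 + 3-MC and 241, 209 and 236 with E2 (2.15-fold higher, limma adjusted p = 0.284 in the 12-array fit and 0.0131 in the 6-array fit, 4.07e-05 to 0.105 over its alternatives). Pc, pyruvate carboxylase, had 595, 696 and 845 with E2 + 3-MC and 378, 390.3 and 400.2 with E2. The E2 + 3-MC and vehicle rats overlapped in both genes. Adipocyte markers had a median of 0.23 with 14 of 14 above 0 and 0 called, and Pparg, the adipocyte master regulator, had 423, 365 and 563 with E2 + 3-MC and 281, 314 and 329.9 with E2. All 13 genes of cholesterol synthesis were above 0, with a median of 0.15 and 0 called.

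Circadian clock genes included the smallest limma adjusted p of the 12-array fit, which a probe set without a gene symbol shared. Nr1d1, which encodes the nuclear receptor REV-ERBα, had intensities of 1058, 853 and 997 with E2 + 3-MC and of 524, 439 and 396 with E2 (log2 1.07, SE 0.15, limma adjusted p = 0.101 in the 12-array fit and 0.00736 in the 6-array fit, 0.000329 to 0.0364 over its alternatives). Dbp, a clock output transcription factor, had 355, 333 and 492 with E2 + 3-MC and 185, 163 and 162 with E2. In Nr1d1 the 3 E2 + 3-MC rats were above all 9 other rats, the 3-MC rats having 601, 561 and 672 and the vehicle rats 628, 560.3 and 452. Other members were not called. Per3, a period gene, averaged 262 ± 48.3 with E2 + 3-MC and 159.8 ± 44.9 with E2, while Bmal1 had 142, 125 and 127 with E2 + 3-MC and 219, 197 and 200.2 with E2, a difference of -0.58 that lay just under the 1.5-fold criterion. Npas2, which like Bmal1 belongs to the activating arm of the clock, had 397, 248 and 307 with E2 + 3-MC and 463, 523 and 483 with E2. Of 15 clock genes, 6 were separate and higher (12% of all probe sets) and 3 separate and lower (5.93% of all). In the 6-array fit 2 were called, both higher (1.15% of all). Per the methods, treatment took place 2 hr after lights came on for all rats and tissue was collected 24 hr after the last dose. The hour at which each rat's tissue was taken is not given, and its part in these values was not tested.

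Hmox1, heme oxygenase, a target of NRF2, had intensities of 578, 1444 and 1127 with E2 + 3-MC and of 165, 128 and 180.2 with E2 (5.79-fold higher, log2 2.53, SE 0.75, limma adjusted p = 0.424 in the 12-array fit and 0.00144 in the 6-array fit, 5.37e-08 to 0.0424 over its alternatives). The lowest E2 + 3-MC rat was above the highest E2 rat by a wide margin, although separate groups were required for naming Hmox1 among the largest differences. The 3-MC rats spread over 2583, 174 and 1119 and the vehicle rats over 382, 144 and 799. All 13 NRF2 targets tested were above 0 with a median of 0.24, and Hmox1 was the single one called by its brightest probe set. The ferritin light chain gene Ftl1, also on this list, had differences of 0.53 to 0.68 in its 6 probe sets, of which 3 were called higher in the 6-array fit while the brightest was not. Of 13 p53 targets, the median was 0.12, Serpinb5, which encodes the epithelial serpin maspin, was the single call (137, 92.5 and 137 with E2 + 3-MC, 207, 229 and 193 with E2), and Cdkn1a, the cell cycle inhibitor p21, had 195, 752 and 558 with E2 + 3-MC and 222, 247 and 252 with E2, which overlapped. For Cdkn1a, E2 + 3-MC rat 1 was below all 3 E2 rats while rats 2 and 3 were above them.

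Fibroblast, endothelial, erythroid, epidermal and brown adipocyte lists had medians of 0.07, 0.13, 0.39, 0.06 and -0.10, with 0 members called, and the unfolded protein response had a median of 0.13 with 0 called. Of the 4 erythroid genes, 4 were above 0 and 3 were separate and higher (12% of all probe sets). Their summed intensity was 2775 to 4000 with E2 + 3-MC and 1879 to 2603 with E2. Outside any list, Dnajc14, a chaperone cofactor of the endoplasmic reticulum, had 161, 119 and 171 with E2 + 3-MC and 365, 279.5 and 307 with E2 (2.01-fold lower, limma adjusted p = 0.2 in the 12-array fit and 0.0115 in the 6-array fit, 0.000523 to 0.0837 over its alternatives). Chosen after the values were seen for their small p-values, Smpdl3a, a secreted nucleotide phosphodiesterase, averaged 624 ± 169 with E2 + 3-MC and 247 ± 61.6 with E2, and Ifng, which encodes interferon γ, averaged 93.0 ± 4.89 with E2 + 3-MC and 41.8 ± 13.5 with E2 (SD, n = 3 rats each). Several probe sets of the multicopy gene Spetex2el3 were lower, by -0.55 to -0.97, and its near-identical copies cannot be told apart by these probes. Of the 359 calls, 230 had a single gene symbol, and the others are not named.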

How the data were processed

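Affymetrix arrays of whole mammary gland RNA from 12 rats, 3 per group, were used. The deposited intensities are linear probe set values that the authors made with Affymetrix Expression Console and PLIER, per the submitters' processing notes. The methods also state quantile normalization, a baseline transform to the controls and removal of the lowest 20th percentile in GeneSpring, but the table held all 29214 probe sets, uncentred, with array medians of 85.7 to 109.5. Values were taken as log2(intensity + 16), and limma 3.58.1 in R 4.3.3 was run on the 23371 probe sets whose mean exceeded the 20th percentile (4 group means, Benjamini-Hochberg adjusted p under 0.05 and at least 1.5-fold). Adding 16 understates the folds of low signals, large ones included. For Cxcl11 the log2 difference was 3.06, against 3.58 with a pseudocount of 1. Figures used Python 3.11.15 and matplotlib 3.10.9. The fit was tested on simulated data with independent normal noise of the same spread in every group. Such data hold no discordant rat and no difference in array scaling, so that test does not cover either. Each gene was represented by its brightest probe set with 1 symbol. Named were the 15 largest non-overlapping differences each way, all AHR targets, receptors and genes the study measured, and up to 4 members of each other list, plus members and genes chosen after their values were seen. Members and lists were chosen with earlier results of these data known, and the alternatives of the 6-array fit, the muscle covariate and the interferon motif were added after seeing the data. Of 446 listed genes, 395 had a probe set, and 298 of 383 tested had a RefSeq promoter. Alternatives covered filter, pseudocount, scaling, variance model, test, threshold, pairing and each rat.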

Additional observations from a re-analysis of the deposited data

How the results depend on the processing

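In the 12-array model, 0 probe sets passed in either direction or for the interaction under most settings. Exceptions were quantile normalization applied again (1 higher, 1 lower), array weights (5 higher, 2 lower), the 6 arrays alone (269 higher, 90 lower), the methods' t-test without adjustment (348 higher, 138 lower, and 0 and 0 after Benjamini-Hochberg) and the fold difference alone (582 higher, 231 lower, and 1049 for the interaction). Leaving out each rat gave 0 to 1 higher (1 without E2 + 3-MC rat 1), 0 to 10 lower (10 without E2 rat 3) and 0 to 1 for the interaction (1 without vehicle rat 3). In the 6-array fit the counts were 128 higher and 40 lower with no filter, 178 and 57 with a pseudocount of 1, 175 and 95 with a trended robust variance, 309 and 130 with array weights, 9 and 16 after quantile normalization applied again, and 8 and 20 with arrays centered on their medians. Leaving out each rat gave 8 to 684 higher and 6 to 178 lower, lowest without E2 + 3-MC rat 2 and highest without E2 + 3-MC rat 1. With the replicate number as a block, the 12-array fit gave 0 higher and 0 lower and the 6-array fit 516 higher and 181 lower. Same-numbered rats had correlations of 0.13, 0.08 and 0.14, and neither labels nor methods say that a number is shared, so the numbers were not used as pairs. The log2 difference changed sign 19 times, in 12 named genes, none of them called. Over the settings that leave out 1 rat it was -0.14 to 0.0600 for Aldh3a1, -0.0427 to 0.161 for Lrat, -0.141 to 0.0514 for Il33, -0.0485 to 0.0398 for Arnt, -0.0204 to 0.128 for Gper1, -0.0684 to 0.014 for Ncoa2, -0.118 to 0.0714 for Ep300, -0.831 to 0.0516 for Csn2, -0.523 to 0.234 for Wap, -0.268 to 0.0531 for Aqp5, -0.169 to 0.11 for Lefty1 and -0.0253 to 0.242 for Krt27. For Csn2, Wap and Aqp5 the sign changed without E2 + 3-MC rat 2. Quantile normalization applied again gave -0.0085 for Lrat and -0.0344 for Gper1, and centering gave -0.0107 for Gper1. List medians changed sign for milk proteins (0.09 without E2 + 3-MC rat 2), fibroblasts (-0.06 without E2 rat 1, -0.05 without E2 + 3-MC rat 3) and epidermis (-0.04 after quantile normalization applied again, -0.04 without E2 rat 3, -0.05 without E2 + 3-MC rat 1). In the 6-array fit, higher calls were 74.9% of all calls, against 28.6% after centering and 36.0% after quantile normalization applied again. With the muscle level as a covariate the 12-array count was also 0, which cannot bear on muscle since it was 0 without it. The cause of these shifts was not tested. With 3 rats per group, the number of arrays limits the precision.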
